A study of Schizosaccharomyces pombe with 4 samples.

Results

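The meiotic programme of Schizosaccharomyces pombe diploids that lack the histone variant H2A.Z was followed over 1.5 h. The deletion of pht1, the gene of H2A.Z, was sampled at 3 h and at 1.5 h after meiosis was induced by nitrogen withdrawal. Its 2 arrays, of 4 in the series, gave 1 log2 difference for each of 2899 named genes, and every named gene was a member. Messenger RNA was labelled and hybridized to Affymetrix arrays, and the values are log2 expression levels made by RMA. The other 2 arrays hold wild type at the same times and are given beside the deletion as a description.

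All cells were h+/h- diploids carrying ade6-210/216, with his5-303/+ and leu1-32/+ as heterozygous markers. The deletion arrays were in addition homozygous for ura4-D18 and for pht1D::ura4+, the replacement of pht1 by the ura4 marker, neither of which is listed for wild type. The groups were thus the deletion at 3 h, the deletion at 1.5 h, wild type at 3 h and wild type at 1.5 h, with 1 array each. Whether the 3 h and 1.5 h cells of a genotype were drawn from 1 culture, and what share of the cells had entered meiosis, is not given in the labels.

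H2A.Z replaces the canonical histone H2A in nucleosomes near promoters, where the SWR1 remodelling complex places it. Fission yeast enters meiosis when nitrogen is scarce: Ste11 turns on mating and meiotic genes, loss of Pat1 kinase activity frees the RNA-binding protein Mei2, and Mei2 in turn keeps the RNA-elimination factor Mmi1 from destroying meiotic transcripts. Premeiotic DNA replication and recombination follow, with the nucleus swept back and forth behind the telomere bouquet in the horsetail stage. The forkhead factor Mei4 then turns on the genes of the divisions and of spore formation.

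The pht1 probe set read 7.36 at 3 h and 7.37 at 1.5 h in the deletion, against 12.86 and 12.70 in wild type at the same times. The deletion arrays thus lay at the bottom of the scale for the deleted gene. The level 8.37, 1 unit above it, served as a mark for near-background values, and a difference that starts from below that mark is a lower bound. The ura4 probe set read 11.89 at 3 h and 12.00 at 1.5 h in the deletion, against 12.38 and 12.70 in wild type. The array medians lay between 11.23 and 11.27 on all 4 arrays.

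With 1 array at each time, no difference within a genotype has a replicate check, and none carries a p-value. The number of arrays limits the precision. As a yardstick, the robust SD over 2258 genes of the difference between the changes of the 2 genotypes was 0.18 log2 units, called the spread below. It holds array noise and any true difference between the genotypes together. A gene was counted when the higher of its 2 values lay above the 25th percentile of its array, the floor, which was 10.08 at 3 h and 10.10 at 1.5 h in the deletion. Since a gene that passes this floor only at the time when it is high had to differ, gene groups are described over all their measured members, with or without the floor.

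Most transcripts held their level between the times. Of 2328 genes above the floor, 1493 or 64.1% differed by no more than the spread, the median difference was 0.00, and the quartiles were -0.12 and 0.13. At least 2-fold higher at 3 h were 55 genes, 2.36% of those above the floor, and at least 2-fold lower were 11, which is 0.473%. In wild type the same counts were 69 genes (2.96%) and 9 genes (0.386%) of 2330. In the deletion 16 genes were higher by at least 3-fold and 1, mde2, by at least 4-fold, while 2 were lower by at least 3-fold and 1, ctr4, by at least 4-fold. A larger share of cells in a stage and more RNA per cell in that stage cannot be told apart in these bulk samples.

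**Figure D1:**
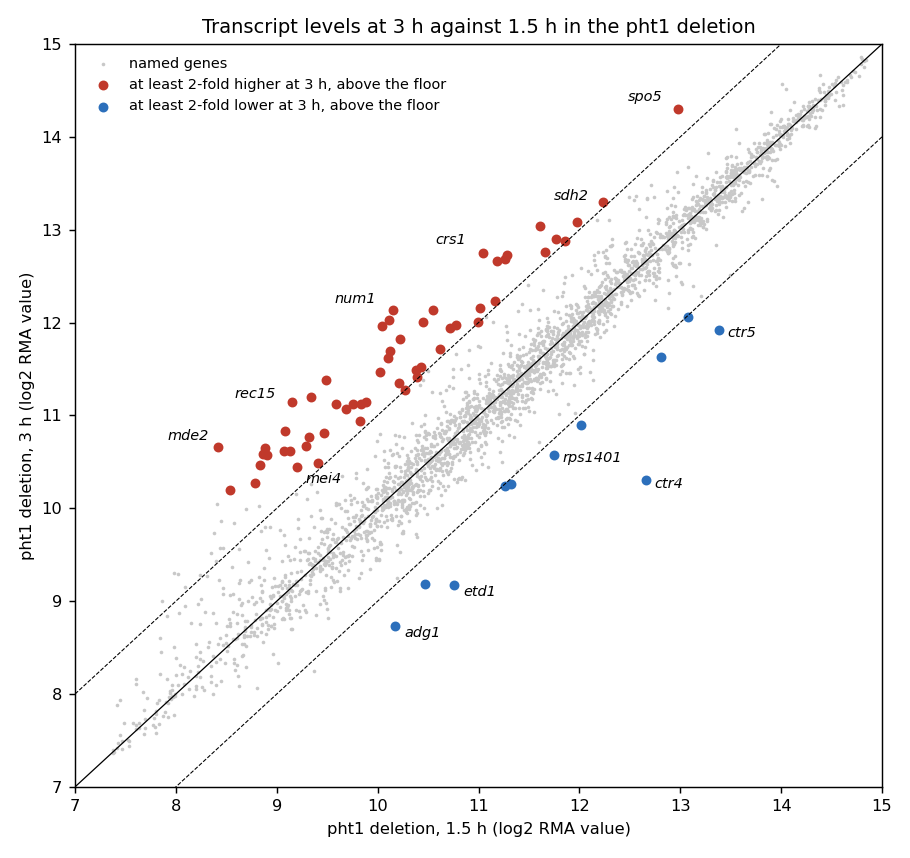
Log2 RMA values of the 2899 named genes in the pht1 deletion at 3 h (vertical axis) against 1.5 h (horizontal axis), 1 array each. Dashed lines mark 2-fold differences. The 55 genes at least 2-fold higher at 3 h (red) outnumber the 11 at least 2-fold lower (blue), and most genes lie along the diagonal.

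Most of the genes that were higher at 3 h were on lists of meiotic and sporulation genes. Of the 55, 44 (80.0%) belonged to at least 1 of 13 such lists, against 225 of the 2328 genes above the floor (9.7%). These lists were chosen with earlier results of these data known. The median percentile of the 55 on the 1.5 h array was 25.26, so many passed the floor only at 3 h. The 2 shares are therefore a description and no test. Some of these lists, the meu and mug genes, were named by earlier screens for transcripts induced in meiosis, so membership describes the genes and is no independent sign of their direction. The median of the 55 was 11.47 at 3 h and 10.11 at 1.5 h in the deletion, against 10.65 and 8.47 in wild type. None of the 55 lay near background on either deletion array, whereas 25 of them read under 8.37 in wild type at 1.5 h. At 1.5 h, 51 of the 55 were already above the wild-type level of that time, all but bio2, hem3, leu2 and mcs6. For 14 of them, among them spo6, spn5, spn7, meu14, meu10 and crp79, the deletion at 1.5 h was above wild type at 3 h as well. The 55 were selected on the deletion arrays alone, which favours genes high there, and no matching share over all genes was counted.

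Genes of meiotic entry showed 2 patterns. The regulators ste11, mei2 and pat1 differed by less than 2-fold in the deletion, ste11 within the spread and mei2 and pat1 past it. ste11, the transcription factor of mating and meiosis, read 13.56 at 3 h and 13.49 at 1.5 h in the deletion, a difference of 0.07, against 13.46 and 12.50 in wild type (0.97). mei2, the RNA-binding protein that starts meiosis, read 14.17 and 13.99 in the deletion at the same times (0.19), against 14.05 and 13.35 in wild type (0.70). pat1, the kinase that holds Mei2 inactive, was at 13.26 and 12.95 in the deletion (0.31), against 12.77 and 11.58 in wild type (1.18). At 3 h the genotypes differed by less than the spread for ste11 and mei2, and at 1.5 h the deletion was above wild type for all 3 genes.

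The members mei3, rep1 and mei4 were higher at 3 h by at least 2-fold in both genotypes. mei3, the inhibitor of Pat1, read 9.57 at 3 h and 8.46 at 1.5 h in the deletion, a difference of 1.11 below the floor, against 9.01 and 7.69 in wild type (1.32). rep1, an activator of the premeiotic S-phase programme, read 11.72 and 10.61 in the deletion (1.10), against 11.27 and 9.26 in wild type (2.01). mei4, the forkhead factor of the middle genes, read 10.45 and 9.20 in the deletion (1.25), against 9.32 and 8.16 in wild type (1.16). All 7 measured entry genes were higher at 3 h in the deletion, 6 by more than the spread and 3 by at least 2-fold. Over all 2899 measured genes 49.9% were higher, 19.8% by more than the spread and 2.41% by at least 2-fold (2.9% in wild type). The median difference of the entry genes was 0.31 in the deletion and 1.16 in wild type.

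The pheromone and mating genes, which respond to Ste11, had a median difference within the spread in the deletion. Over all 27 measured members the median difference was 0.07 in the deletion and 0.94 in wild type, where the median of all measured genes was 0.00 and -0.02. In the deletion 8 members were higher and 2 lower by more than the spread, against 19.8% and 17.8% of all measured genes. By any amount 18 were higher, against 49.9% of all measured genes. mei3 alone passed 2-fold in the deletion, whereas 12 members passed it in wild type. map2, the P-factor pheromone gene, read 14.67 at 3 h and 14.38 at 1.5 h in the deletion, against 13.78 and 11.97 in wild type. The highest values on the deletion arrays were 14.88 at 3 h and 14.84 at 1.5 h. Whether signal is compressed near them was not tested. fus1, the formin of cell fusion, read 11.84 and 11.94 in the deletion at these times, against 11.43 and 10.02 in wild type. sxa2, the protease that degrades P-factor, read 13.65 and 13.50 in the deletion, against 13.00 and 11.25 in wild type. For each of these 3 genes both deletion levels were above both wild-type levels. The largest differences of pheromone genes other than mei3 in the deletion were those of map4 (0.53) and map3 (0.42), and the lowest were gap1 (-0.32) and byr2 (-0.51).

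Genes of meiotic double-strand break formation had the second-highest median of the 56 lists in the deletion. Recombination begins when Rec12, the Spo11 homologue, cuts DNA with a set of partner proteins on linear elements, the axis structures of fission yeast. Of the 13 measured members, 13 were higher at 3 h in the deletion, 11 by more than the spread and 8 by at least 2-fold. The median was 1.32 in the deletion and 1.53 in wild type. Over all measured genes, 19.8% were higher by more than the spread and 2.41% by at least 2-fold.

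Among the partners of Rec12, mde2 had the largest difference of any gene above the floor in the deletion, 10.66 at 3 h and 8.42 at 1.5 h (2.25). Wild type read 8.48 and 7.58 for mde2 (0.90), with the earlier value near background. rec15 read 11.14 at 3 h and 9.15 at 1.5 h in the deletion (1.99), against 10.52 and 7.79 in wild type (2.73). rec6 read 11.33 and 10.41 in the deletion (0.92), against 11.38 and 10.05 in wild type (1.33). The nuclease gene rec12 itself was below the floor, at 9.75 and 8.85 in the deletion (0.91), against 9.81 and 8.83 in wild type (0.98). At 3 h mde2 and rec15 were thus above wild type in the deletion by more than the spread, while rec6 and rec12 lay within the spread of wild type at 3 h. rec24 (0.61) started near background, and rec7 (0.11) was near background at both times. rec14, the homologue of Ski8, stayed within the spread, at 11.07 and 10.98 (0.09).

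The linear element genes were higher together. rec10, the main axis component, read 11.38 at 3 h and 9.49 at 1.5 h in the deletion (1.89), against 11.18 and 8.17 in wild type (3.00). hop1, the HORMA-domain axis protein, read 12.69 and 11.27 in the deletion (1.42), against 12.28 and 9.24 in wild type (3.04). The small element proteins rec25, mug20 and rec27 were higher by 1.45, 1.29 and 1.32 in the deletion, the last from below 8.37 and below the floor. mek1, the checkpoint kinase of meiotic recombination, read 11.69 and 10.12 in the deletion (1.57), against 11.46 and 8.80 in wild type (2.65). For all 5 of rec10, hop1, rec25, mug20 and mek1 the deletion was above wild type at both times, with the wider gap at 1.5 h. Over the 13 break genes the difference was larger in the deletion than in wild type for 3 and smaller for 10. The same counts were 1573 and 1326 over all 2899 measured genes. The interaction of genotype and time cannot be tested with 1 array for each combination.

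**Figure D2:**
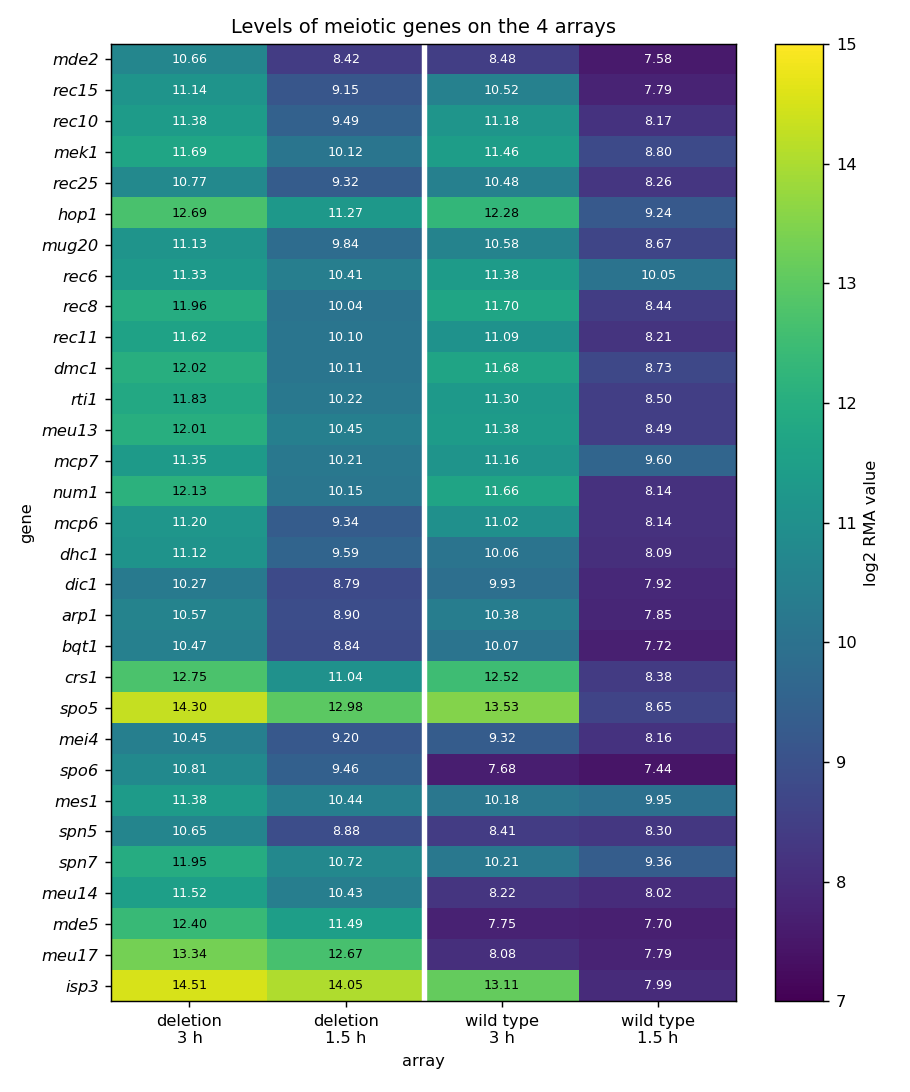
Log2 RMA values of 31 meiotic genes (rows) on the 4 arrays (columns), printed in each cell. The deletion values at 1.5 h are mostly above the wild-type values at 1.5 h, as for spo5 (12.98 against 8.65), and spo6, meu14, mde5 and meu17 read under 8.37 on both wild-type arrays.

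Sister chromatid cohesion showed a split between meiotic and general subunits. rec8, the meiotic kleisin, read 11.96 at 3 h and 10.04 at 1.5 h in the deletion (1.92), against 11.70 and 8.44 in wild type (3.26). rec11, its partner subunit along chromosome arms, read 11.62 and 10.10 in the deletion (1.52), against 11.09 and 8.21 in wild type (2.87). rad21, the mitotic kleisin, stayed at 11.01 and 10.98 in the deletion (0.03), against 11.02 and 11.37 in wild type (-0.35). psc3, the partner used at centromeres, differed by 0.16 in the deletion. The meiotic kleisin and its arm partner were thus above 2-fold and the mitotic kleisin and psc3 within the spread. The centromere protector sgo1 was just under the 2-fold threshold (0.96), and the cohesin loader mis4 was higher by 0.75. The core subunits psm1 (0.48) and psm3 (0.39) were higher by less. All 14 members were higher by some amount, 8 by more than the spread, against 49.9% and 19.8% of all measured genes. List medians were 0.37 in the deletion and 0.38 in wild type.

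For strand exchange and repair the meiosis-specific genes again led. dmc1, the meiotic strand exchange protein, read 12.02 at 3 h and 10.11 at 1.5 h in the deletion (1.91), against 11.68 and 8.73 in wild type (2.95). rti1, a paralogue of Rad52, read 11.83 and 10.22 in the deletion (1.61), against 11.30 and 8.50 in wild type (2.80). meu13 and mcp7, the Hop2 and Mnd1 proteins that assist Dmc1, were higher by 1.56 and 1.13 in the deletion. These 4 genes were the members past 2-fold. The exchange mediator sfr1 (0.98) and the crossover nuclease subunits mus81 (0.92) and eme1 (0.73) were higher by less than 2-fold. Of other repair genes, nbs1 (0.05), rad55 (0.05) and rad57 (-0.01) held, and the mismatch repair gene pms1 was at -0.21. Of the 27 members 18 were higher and 3 lower by more than the spread, against 19.8% and 17.8% of all measured genes. List medians were 0.29 in the deletion and 0.34 in wild type.

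The telomere bouquet and horsetail movement genes divided in the same way. num1, which anchors dynein at the cortex, read 12.13 at 3 h and 10.15 at 1.5 h in the deletion (1.98), against 11.66 and 8.14 in wild type (3.52). mcp6, a spindle pole body protein of the horsetail stage, read 11.20 and 9.34 in the deletion (1.86), against 11.02 and 8.14 in wild type (2.88). bqt1, which ties telomeres to the spindle pole body, read 10.47 and 8.84 in the deletion (1.63), against 10.07 and 7.72 in wild type (2.35). The dynein heavy chain gene dhc1 (1.54) and the dynactin genes arp1 (1.67) and ssm4 (1.64, below the floor) were higher by similar amounts. The dynein intermediate chain gene dic1 read 10.27 and 8.79 in the deletion, against 9.93 and 7.92 in wild type. Light chain genes differed less, with dli1 at 0.35 and dlc1 at 0.18. Among telomere and nuclear envelope proteins used in all cells, bqt3 (0.01) and sad1 (0.03) held, rap1 was at 0.21 and taz1 at -0.28. Of the 16 members of the list 12 were higher and 1 lower by more than the spread, against 19.8% and 17.8% of all measured genes. List medians were 0.29 in the deletion and 0.65 in wild type.

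The transcripts that Mmi1 directs to destruction in growing cells had the highest median of the 56 lists in the deletion. All 19 measured targets were higher at 3 h in the deletion, 18 by more than the spread and 17 by at least 2-fold, with a median of 1.43. The shares over all measured genes were 49.9%, 19.8% and 2.41%. Wild type had a median of 2.24 over the same 19 genes, and 17 passed 2-fold there too. The group shares members with the others, among them rec8, num1, dhc1, meu13 and mei4. The exception to the pattern was mug42, which was near background on all 4 arrays (0.06 in the deletion). The difference was smaller in the deletion than in wild type for 17 of the 19, against 1326 of all 2899 measured genes.

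The targets spo5 and crs1 differed most between the genotypes. spo5, an RNA-binding protein needed for the meiotic divisions, read 14.30 at 3 h and 12.98 at 1.5 h in the deletion (1.32), against 13.53 and 8.65 in wild type (4.88). crs1, a meiotic cyclin, read 12.75 and 11.04 in the deletion (1.71), against 12.52 and 8.38 in wild type (4.14). At 3 h the deletion was above wild type by less than 1 unit for both genes, and at 1.5 h by more than 2 units. The genes of the elimination machinery itself had a median of -0.03. By more than the spread 0 of 10 were higher and 2 lower, against 19.8% and 17.8% of all measured genes.

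**Figure D3:**
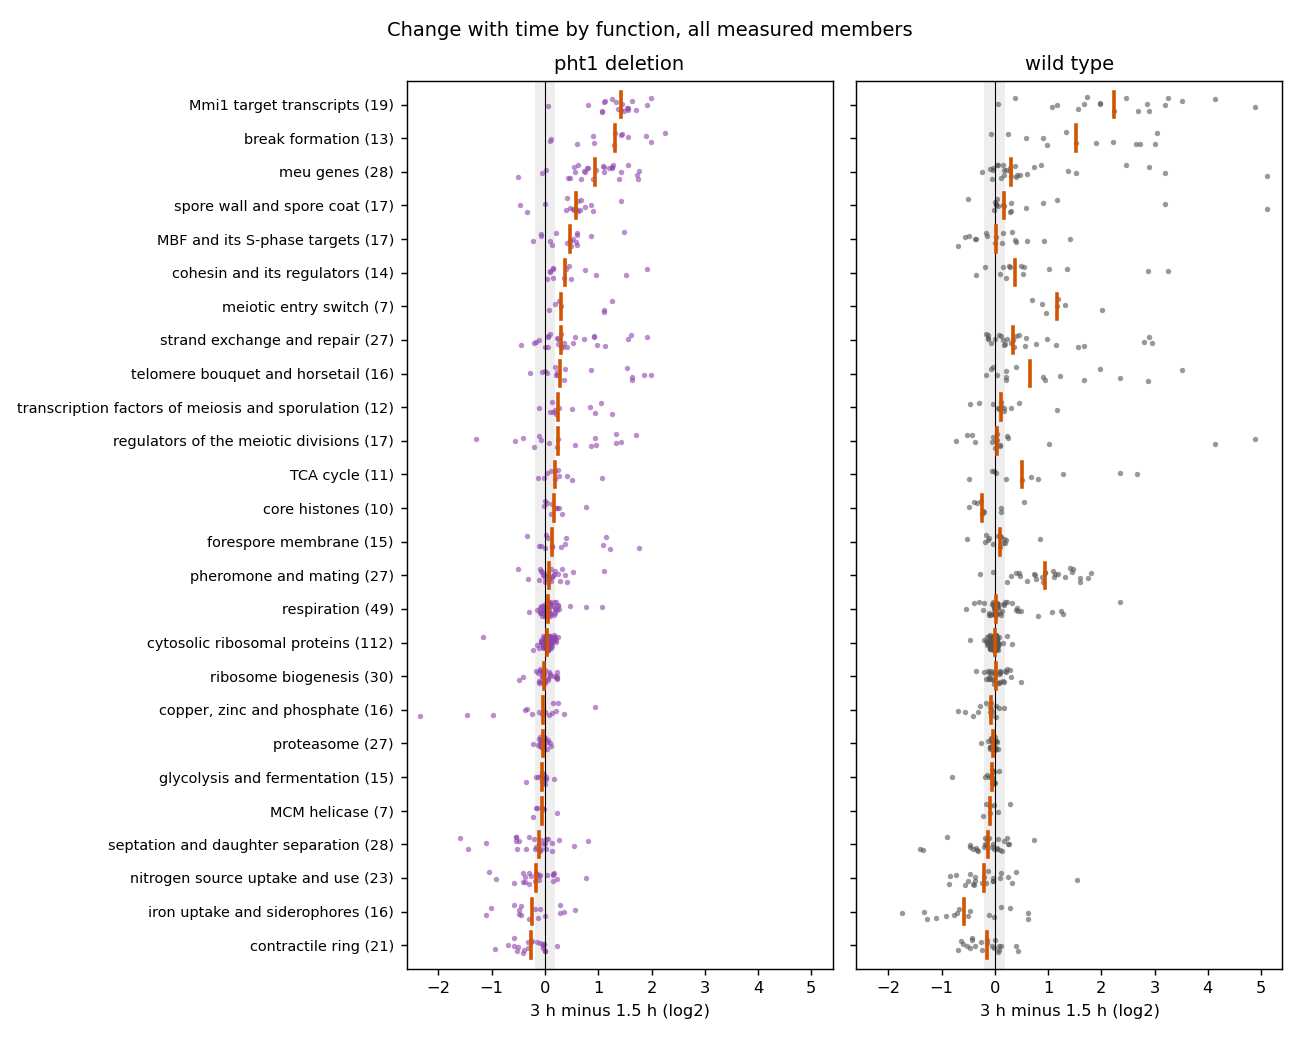
Change with time (3 h minus 1.5 h, log2) of every measured member (points) of 26 gene groups in the pht1 deletion (left) and wild type (right), with the number of members in brackets. Orange bars are medians and the grey band is the spread of 0.18. Mmi1 targets and break genes have the highest medians in both genotypes, and pheromone genes have a median of 0.07 in the deletion and 0.94 in wild type.

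Genes of the meiotic divisions and of sporulation, which follow recombination, were also higher at 3 h in the deletion. spo6, the regulatory subunit of a meiotic kinase, read 10.81 at 3 h and 9.46 at 1.5 h in the deletion (1.34), against 7.68 and 7.44 in wild type, both near background. Its catalytic partner spo4 read 9.86 and 8.44 in the deletion (1.42, below the floor), against 7.40 and 7.36 in wild type. mes1, an inhibitor of the anaphase-promoting complex between the meiotic divisions, read 11.38 and 10.44 in the deletion (0.94), against 10.18 and 9.95 in wild type (0.23). Both kinase subunits were thus near background in wild type at both times. In the deletion both lay above the near-background mark at both times. For spo4 the value at 1.5 h (8.44) was only just above that mark. mfr1, a meiotic activator of the anaphase-promoting complex, was at 9.80 and 8.93 in the deletion (0.87, below the floor), against 7.76 and 7.82 in wild type. mde3, a meiotic protein kinase gene, read 10.19 and 8.53 in the deletion (1.66), against 8.46 and 7.61 in wild type (0.85).

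General regulators of division did not share this pattern. cdc2 and cdc13, the main cell cycle kinase and its cyclin, differed by 0.08 and 0.24. wee1, an inhibitory kinase, was at -0.41, and slp1, the mitotic activator of the anaphase-promoting complex, at -0.56. spo12, the homologue of a budding yeast mitotic exit factor, read 9.19 at 3 h and 10.47 at 1.5 h in the deletion (-1.29), against 9.98 and 10.50 in wild type (-0.52). Over the 17 regulators of the divisions 10 were higher and 4 lower by more than the spread, against 19.8% and 17.8% of all measured genes. List medians were 0.24 in the deletion and 0.04 in wild type.

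The forespore membrane, which encloses each haploid nucleus, uses sporulation septins and a leading-edge coat. spn5, a sporulation septin, read 10.65 at 3 h and 8.88 at 1.5 h in the deletion (1.76), against 8.41 and 8.30 in wild type (0.11). The septin spn7 read 11.95 and 10.72 in the deletion (1.22), against 10.21 and 9.36 in wild type (0.85). meu14, of the leading edge, read 11.52 and 10.43 in the deletion (1.09), against 8.22 and 8.02 in wild type (0.21). In wild type meu14 was thus near background at both times and spn5 at 1.5 h. With the septin spn6 (1.14, below the floor) these were the 4 members past 2-fold of 15, against 2.41% of all measured genes. The general secretion genes of the group, psy1 (0.05), sec9 (0.00) and spo20 (-0.07), stayed within the spread. The median was 0.14 in the deletion and 0.10 in wild type.

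Spore wall and spore coat genes had differences of less than 2-fold that nearly all pointed the same way. Of 17 measured members 14 were higher and 2 lower by more than the spread, against 19.8% and 17.8% of all measured genes. Only 1, meu10, passed 2-fold. The median was 0.58 in the deletion and 0.17 in wild type. isp3, a protein of the spore surface, read 14.51 at 3 h and 14.05 at 1.5 h in the deletion (0.46), against 13.11 and 7.99 in wild type, a lower bound of 5.11. mde5 read 12.40 and 11.49 in the deletion (0.91), against 7.75 and 7.70 in wild type. meu17 read 13.34 and 12.67 in the deletion (0.67), against 8.08 and 7.79 in wild type. The 3 genes differ in wild type, where isp3 was read at 3 h and mde5 and meu17 were near background at both times. bgs2, a glucan synthase of the spore wall, was higher by 0.75 in the deletion and 0.17 in wild type. The alpha-glucan synthase family genes mok11 (0.65), mok13 (0.58) and mok14 (0.61) were higher in the deletion, and mok12 was lower (-0.46). agn2, a glucanase of spore release, read 12.13 and 11.51 in the deletion (0.63), against 10.02 and 10.52 in wild type (-0.50).

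The meu genes, named for induction in meiosis, had a median difference of 0.93 over 28 in the deletion and 0.30 in wild type. In the deletion 25 were higher and 1, atd3, was lower by more than the spread, and 13 passed 2-fold, against 6 in wild type. The shares over all measured genes in the deletion were 19.8%, 17.8% and 2.41%. The difference was larger in the deletion for 20 of the 28, against 1573 of all 2899 measured genes. crp79, an mRNA export factor of meiosis, read 10.83 at 3 h and 9.08 at 1.5 h in the deletion (1.75), against 8.20 and 7.46 in wild type (0.73). meu25 read 11.49 and 10.38 in the deletion (1.11), against 8.25 and 8.29 in wild type (-0.04). meu26 read 10.59 and 8.87 in the deletion (1.72), against 10.04 and 7.59 in wild type (2.46). Members thus split between those near background on both wild-type arrays, such as meu25, and those read in wild type at 3 h, such as meu26. mug15 read 12.13 at 3 h and 10.55 at 1.5 h in the deletion (1.59), and mug45 10.62 and 9.07 (1.55). Both were also higher at 3 h in wild type, mug15 by 2.02 and mug45 by 2.45. Of the 176 mug genes 110 were higher and 3 lower by more than the spread, 27 passed 2-fold and the median was 0.30 in the deletion and 0.08 in wild type.

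Of 12 transcription factors of meiosis and sporulation, 8 were higher and 0 lower by more than the spread at 3 h in the deletion. The shares over all measured genes were 19.8% and 17.8%. atf21 was at 9.28 at 3 h and 8.23 at 1.5 h in the deletion (1.04, below the floor), against 7.62 and 7.51 in wild type. cuf2, a copper-fist factor of middle meiosis, was at 9.56 and 8.62 in the deletion (0.94, below the floor), against 7.59 and 7.63 in wild type. rsv1 was at 10.32 and 9.48 in the deletion (0.85), against 9.72 and 9.43 in wild type (0.29). For atf21 and cuf2 both wild-type arrays were near background. rsv2 (0.27) and atf1 (0.18) were also higher, by less, and prr1 was at -0.11. The list shares mei4 with the entry genes, and the median was 0.24 in the deletion and 0.11 in wild type.

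The S-phase programme under the MBF transcription factor was modestly higher at 3 h. mik1, a kinase that inhibits Cdc2, read 10.62 at 3 h and 9.13 at 1.5 h in the deletion (1.49), against 10.03 and 8.62 in wild type (1.41). cdc18, which loads the replicative helicase, read 11.27 and 10.68 in the deletion (0.59), against 10.77 and 11.26 in wild type (-0.49). The MBF repressor genes nrm1 (0.87) and yox1 (0.61), the cyclin gene cig2 (0.60) and the ribonucleotide reductase gene cdc22 (0.42) were higher in the deletion. Among these, mik1 had differences of similar size in both genotypes and cdc18 differences of opposite sign. Of 17 MBF genes 12 were higher and 1 lower by more than the spread, against 19.8% and 17.8% of all measured genes. List medians were 0.48 in the deletion and 0.02 in wild type. The MCM helicase genes held, with 1 of 7 higher, 1 lower and a median of -0.06. Core histone genes had a median of 0.16 over 10 in the deletion and -0.24 in wild type. The difference was larger in the deletion for all 10, against 1573 of all 2899 measured genes. cnp1, the centromeric H3, was highest (0.77), and htb1, the H2B gene, was at -0.02. The histone genes hht1 and hhf1 were higher at 3 h in the deletion (0.26 and 0.23) and lower in wild type (-0.26 and -0.49).

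A second group of higher genes belonged to metabolism. sdh2, the iron-sulfur subunit of succinate dehydrogenase, read 13.30 at 3 h and 12.23 at 1.5 h in the deletion (1.07), against 13.57 and 11.23 in wild type (2.34). isa1, of iron-sulfur cluster assembly, read 12.16 and 11.01 in the deletion (1.15), against 12.18 and 9.84 in wild type (2.33). fbp1, a gluconeogenic phosphatase, read 12.90 and 11.77 in the deletion (1.13), against 12.32 and 11.27 in wild type (1.05). These 3 genes were higher at 3 h by at least 2-fold in both genotypes. The leucine synthesis gene leu2 was higher by 1.11, the haem synthesis gene hem3 by 1.01 and the biotin synthase gene bio2 by 1.01 in the deletion. tim18, listed with the succinate dehydrogenase subunits, was higher by 0.51 in the deletion, against 2.67 in wild type. Of 11 genes of the tricarboxylic acid cycle 7 were higher and 0 lower by more than the spread, against 19.8% and 17.8% of all measured genes. List medians were 0.20 in the deletion and 0.51 in wild type. The wider respiration list had a median of 0.06 over 49 in the deletion.

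Hexose transporter genes went both ways. ght6 read 11.97 at 3 h and 10.77 at 1.5 h in the deletion (1.20), against 8.12 and 7.65 in wild type, both near background. ght1 (0.93), ght3 (0.65) and ght7 (1.17, below the floor) were also higher in the deletion. ght5 (0.03) and ght4 (0.02) held, and ght2 (-0.49) and ght8 (-0.57) were lower. Members of this family resemble each other in sequence, and cross-hybridization between them was not tested.

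Lower transcripts were fewer and of other kinds. The largest difference downward was in copper uptake. ctr4 and ctr5 encode the subunits of the copper transporter of the plasma membrane. ctr4 read 10.30 at 3 h and 12.66 at 1.5 h in the deletion (-2.36), against 11.72 and 11.81 in wild type (-0.09). ctr5 read 11.92 and 13.38 in the deletion (-1.46), against 12.72 and 12.88 in wild type (-0.16). For both genes the deletion was above wild type at 1.5 h and below it at 3 h, while wild type stayed within the spread. The vacuolar copper transporter gene ctr6 was lower by less (-0.38), and the copper amine oxidase gene cao1 read 12.51 and 13.49 in the deletion (-0.98), against 12.61 and 13.30 in wild type (-0.70). The copper-dependent gene sod1 (0.15) and the copper-sensing factor gene cuf1 (0.20) differed little. In the copper, zinc and phosphate list, 4 of 16 were higher and 6 lower by more than the spread, with a median of -0.03, where 17.8% of all measured genes were lower by more than the spread and 0.414% by at least 2-fold.

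Iron uptake genes were lower in both genotypes. fio1, the ferroxidase, read 10.90 at 3 h and 12.01 at 1.5 h in the deletion (-1.12), against 11.42 and 12.70 in wild type (-1.28). str3, listed with the iron uptake and siderophore genes, read 12.06 and 13.07 in the deletion (-1.01), against 11.95 and 13.28 in wild type (-1.33). fip1, the permease that works with the ferroxidase, read 12.44 and 13.01 in the deletion (-0.57), against 12.69 and 13.59 in wild type (-0.91). For these 3 genes the wild-type difference was the larger one. The ferric reductase gene frp1 (-0.48), the siderophore transporter gene str1 (-0.48) and the siderophore synthesis gene sib1 (-0.30) were lower in the deletion as well. pcl1, a vacuolar iron transporter gene, went the other way (0.57 in the deletion and 0.63 in wild type). Of 16 iron genes 9 were lower and 4 higher by more than the spread, against 17.8% and 19.8% of all measured genes. List medians were -0.25 in the deletion and -0.59 in wild type.

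**Figure D4:**
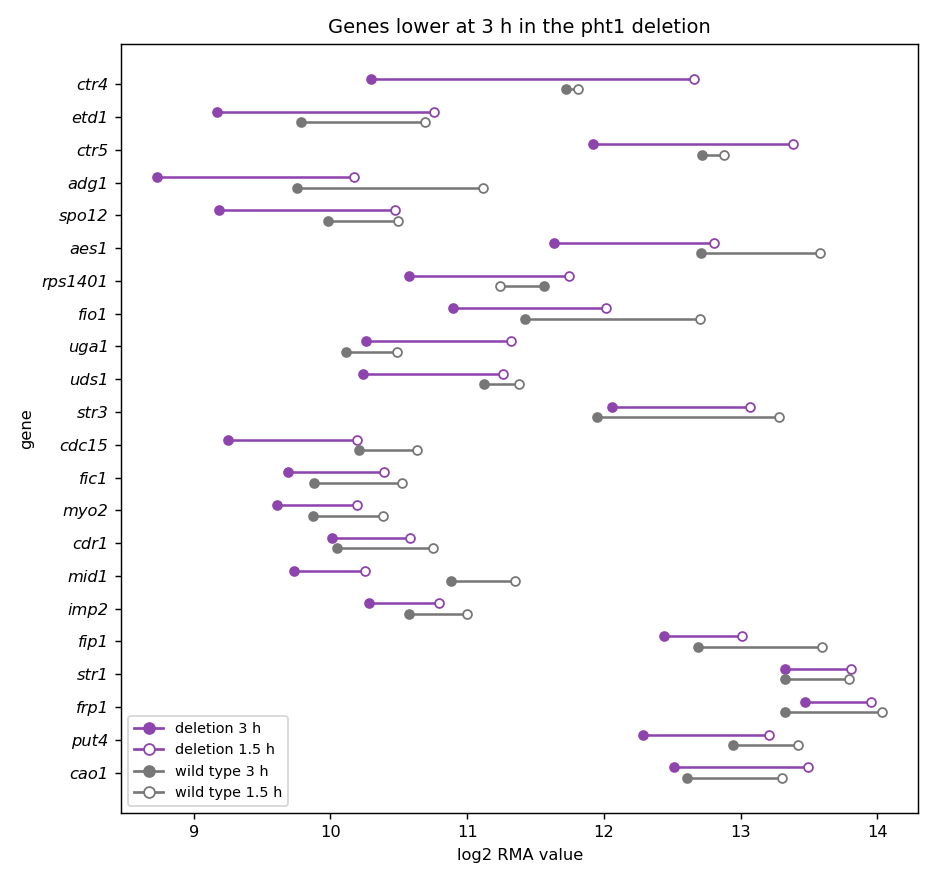
Log2 RMA values (horizontal axis) of the 11 genes at least 2-fold lower at 3 h in the pht1 deletion and of 11 further lower genes named in the text (vertical axis). Purple points are the deletion and grey points wild type, filled at 3 h and open at 1.5 h. ctr4 and ctr5 have long purple lines and short grey ones, and for rps1401 the grey filled point lies to the right of the open one.

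Some genes of cell separation were lower in both genotypes. etd1, an activator of septation, read 9.17 at 3 h and 10.76 at 1.5 h in the deletion (-1.59), against 9.78 and 10.69 in wild type (-0.91). adg1, a gene of daughter cell separation, read 8.73 and 10.17 in the deletion (-1.44), against 9.76 and 11.12 in wild type (-1.36). eng1, the glucanase of the septum, read 8.25 and 9.37 in the deletion (-1.12, below the floor), against 8.65 and 10.06 in wild type (-1.41). All 3 genes were lower at 3 h in both genotypes. In the other direction went adg2, another gene of daughter cell separation (0.80 in the deletion and 0.74 in wild type). Of 28 septation genes 12 were lower and 3 higher by more than the spread, against 17.8% and 19.8% of all measured genes, and the median was -0.11 in the deletion and -0.12 in wild type, within the spread.

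Of 21 contractile ring genes 12 were lower and 1, rlc1, was higher by more than the spread at 3 h in the deletion. The shares over all measured genes were 17.8% and 19.8%. cdc15, an F-BAR protein of the ring, read 9.25 at 3 h and 10.19 at 1.5 h in the deletion (-0.94), against 10.21 and 10.63 in wild type (-0.42). mid1, which places the ring, read 9.73 and 10.25 in the deletion (-0.52), against 10.88 and 11.35 in wild type (-0.47). myo2, the ring myosin, read 9.61 and 10.19 in the deletion (-0.59), against 9.87 and 10.39 in wild type (-0.52). All 3 were lower at 3 h in both genotypes by more than the spread. In the deletion they lay under the floor of 10.08 at 3 h and just above that of 10.10 at 1.5 h. The abundant cytoskeletal genes of the list, cdc8 (-0.02), cdc4 (0.00), cdc3 (-0.03) and adf1 (-0.04), held. The median of the list was -0.26 in the deletion and -0.15 in wild type. Among the 15 members above the floor in the deletion, 7 were lower by more than the spread and the median was -0.14, within it. Whether the split between dim and abundant members follows signal intensity was not tested.

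Among nitrogen source genes, uga1 and put4 were lowest. uga1, a transaminase of gamma-aminobutyrate use, read 10.26 at 3 h and 11.32 at 1.5 h in the deletion (-1.06), against 10.11 and 10.48 in wild type (-0.37). put4, a proline permease, read 12.29 and 13.20 in the deletion (-0.92), against 12.94 and 13.42 in wild type (-0.48). The arginase gene car1 was lower by less, at -0.58 in the deletion and -0.84 in wild type. The glutamate synthase gene glt1 was higher (0.77 in the deletion and 1.55 in wild type). Of 23 members 11 were lower and 2 higher by more than the spread, against 17.8% and 19.8% of all measured genes, and the median was -0.16 in the deletion, within the spread, and -0.20 in wild type.

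The remaining genes at least 2-fold lower were rps1401, aes1 and uds1. rps1401, for a protein of the small ribosomal subunit, read 10.57 at 3 h and 11.74 at 1.5 h in the deletion (-1.17), against 11.56 and 11.24 in wild type (0.33). Its near-identical copy rps1402 was at 13.48 and 13.31 in the deletion (0.17), and how far their probes share signal was not tested. aes1 read 11.63 and 12.81 in the deletion (-1.17), against 12.71 and 13.58 in wild type (-0.87). uds1 read 10.24 and 11.27 in the deletion (-1.03), against 11.12 and 11.38 in wild type (-0.26). rps1401 was the single gene of the 11 that was higher in wild type at 3 h. Below the 2-fold mark, exg3 differed by -0.93 in the deletion and -1.13 in wild type, mel1 by -0.89 and -0.38, puf3 by -0.79 and -0.64, cao2 by -0.76 and -0.48, and pof14 by -0.76 and -1.31.

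Several functions of growth held in the deletion. Of 112 cytosolic ribosomal protein genes, 6 were higher and 2 lower by more than the spread, with a median of 0.04, although rps1401 passed 2-fold. Proteasome genes had a median of -0.04, with 0 of 27 higher and 1 lower by more than the spread. Glycolysis and fermentation genes had a median of -0.05, with 0 of 15 higher and 1 lower. Members of these 3 lists above the floor had median levels of 13.94, 13.37 and 14.27 at 3 h in the deletion. The highest value on that array was 14.88, and whether compressed signal narrowed their differences was not tested. Translation factors, aminoacyl-tRNA synthetases and ribosome biogenesis genes had medians of 0.07, 0.00 and -0.02. Over all measured genes 62.4% lay within the spread. Other lists had larger shares of lower members than all measured genes, of which 17.8% were lower by more than the spread. They were cell wall synthesis in growth (9 of 21), amino acid synthesis (12 of 40) and remodellers and SAGA (13 of 38). Their medians were -0.17, -0.08 and -0.07 in the deletion, within the spread, and 0.13, -0.26 and -0.18 in wild type. The cell wall genes thus had medians of opposite sign in the genotypes, and 15 of the 21 were higher in wild type. Chaperone genes leaned down by small amounts, with 15 of 16 lower, where 50.1% of all measured genes were lower, but 4 by more than the spread and a median of -0.10. In wild type 9 of the 16 were higher and the median was 0.04. The SWR1 complex, which deposits H2A.Z, had a median of -0.02 over 13, with yaf9 highest (0.49) and swr1 lowest (-0.38).

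Set side by side, the genotypes shared the direction of most of the larger differences. Of 2258 genes above the floor in both, 36 passed 2-fold upward in the deletion and 68 in wild type. The 32 that passed in both were 88.9% of the deletion's genes and 47.1% of those of wild type. The floor on the wild-type arrays left out genes that were low there, so the 88.9% is higher than the share among all 55. Downward, 11 passed in the deletion and 7 in wild type, and 3, adg1, fio1 and str3, in both. No gene passed 2-fold in opposite directions. Among all 55 genes higher in the deletion, 38 were at least 2-fold higher in wild type, 13 were higher by less than 2-fold but more than the spread, and 4, meu25, mug137, mug97 and spn5, lay within the spread. Of these 4, meu25, mug137 and mug97 read under 8.37 on both wild-type arrays and spn5 at 1.5 h. Among the 13, crp79, ght6, meu14 and spo6 also read under 8.37 on both wild-type arrays. Small wild-type differences of such genes do not show a steady level. For 35 of the 55 the wild-type difference was the larger one, against 1326 of all 2899 measured genes.

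Genes past 2-fold in wild type that did not pass in the deletion were higher in it by less, or held. Of the 68 genes 28 were higher at 3 h in the deletion by less than 2-fold, and 8 lay within the spread, among them the mating genes fus1, mam3, mam4, mfm3 and sxa2. The largest gaps were those of isp3 (0.46 in the deletion and at least 5.11 in wild type), spo5 (1.32 and 4.88) and crs1 (1.71 and 4.14). mug14 read 14.57 at 3 h and 14.01 at 1.5 h in the deletion (0.55), with a wild-type difference of 2.88. dni1 read 12.65 and 12.29 in the deletion (0.36), with a wild-type difference of 2.28. ppk33 had 0.58 in the deletion and 2.40 in wild type. ctr4 had -2.36 in the deletion and -0.09 in wild type, and its level in the deletion was above wild type at 1.5 h (12.66 against 11.81) and below it at 3 h (10.30 against 11.72).

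**Figure D5:**
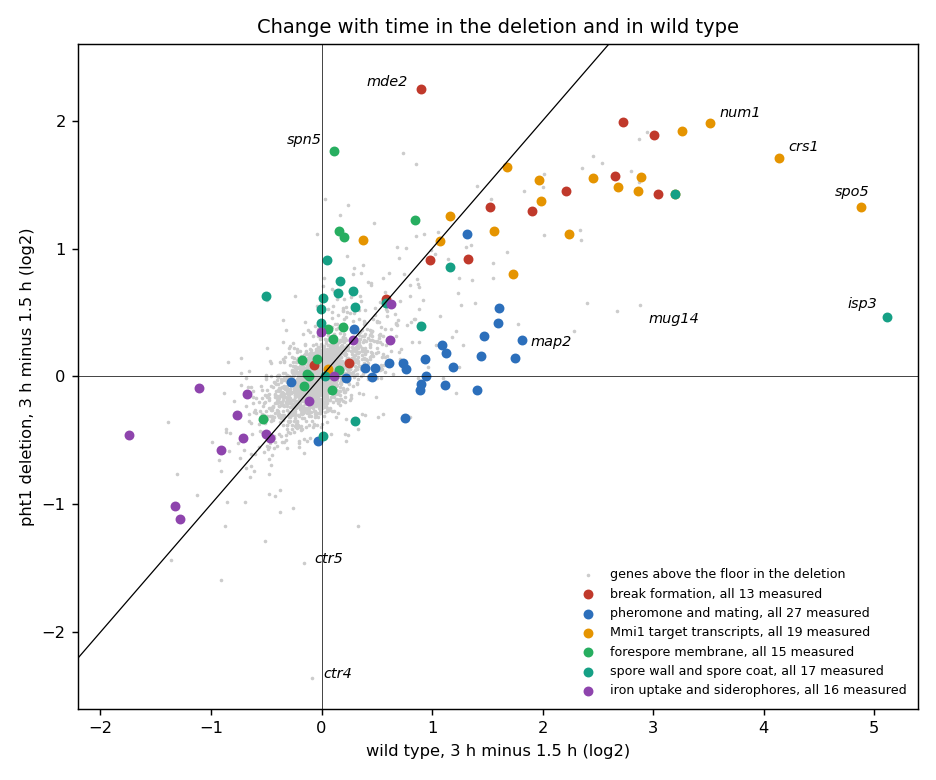
Change with time (3 h minus 1.5 h, log2) in the pht1 deletion (vertical axis) against wild type (horizontal axis), 1 array per time. Coloured points are all measured members of 6 groups and the line marks equal change. Pheromone genes lie to the right of 0 near the horizontal axis, most break genes and Mmi1 targets lie below the line, and ctr4 and ctr5 lie low near the vertical axis.

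A difference with time that is common to both genotypes can be tested with all 4 arrays in 1 fit. limma's additive fit of time and genotype on 2314 genes, with 1 residual degree of freedom, called 0 genes at an adjusted p of 0.05, which is 0.0% of those tested. The lowest adjusted p was 0.0691, shared by 35 genes, and 527 genes had an unadjusted p under 0.05, of which 263 were higher and 264 lower at 3 h. The largest common differences upward were spo5 (3.10, adjusted p = 0.182 by limma), crs1 (2.92, adjusted p = 0.126), isp3 (2.79, adjusted p = 0.267), num1 (2.75, adjusted p = 0.0817) and rec8 (2.59, adjusted p = 0.0786). Downward they were adg1 (-1.40, adjusted p = 0.0691 by limma), etd1 (-1.25, adjusted p = 0.0881), ctr4 (-1.22, adjusted p = 0.3), fio1 (-1.20, adjusted p = 0.0691) and str3 (-1.17, adjusted p = 0.0691). The count of calls depends on settings: the same fit called 118 genes after quantile normalization and 69 of 2899 genes without the floor.

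The higher genes were spread over the genome. Of the 55, 20 lay on chromosome I, 26 on II and 9 on III (36.4%, 47.3% and 16.4%), against 45.8%, 38.4% and 15.8% of the genes above the floor. Their median length was 1721 bases, against 1843 for the genes above the floor. The neighbours crs1 and mug110 on chromosome II were the 1 adjacent pair among them. At the threshold, mcs6, hem3 and bio2 were the lowest of those counted as higher, each at 1.01, and gal10 (0.99), sfr1 (0.98) and sgo1 (0.96) were the nearest left out. On the lower side str3 (-1.01), uds1 (-1.03) and uga1 (-1.06) were just inside, and cao1 (-0.98), hrp1 (-0.98) and cdc15 (-0.94) just outside.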

How the data were processed

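Per the labels' protocols, poly(A) RNA was purified from DNase-treated total RNA and labelled as biotin cRNA. Per the submitters' processing notes, the deposited values are log2 values made by the authors with RMA, which corrects the background, equalizes the distributions of the arrays and summarises each probe set. Its version is not given in the sources used here, nor is the set of arrays that was normalized jointly. Because distributions were equalized, a value says how a transcript stood among the rest of its array and not how much mRNA the cells held. The table has 4999 probe sets: the platform annotation names 1 gene for 2917, several for 20 and none for 2062. Names, gene order and length come from RefSeq's genes of ASM294v3, to which 2914 probe sets matched by gene identifier, with 113 symbols updated. This gave 2899 genes, of which 14 had more than 1 probe set and were read from the brightest on average.

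Differences are 3 h minus 1.5 h, 1 array each. The floor was the 25th percentile of each array. The spread was the median absolute deviation of the difference of differences, scaled to an SD. Medians and counts of 56 gene lists are over all measured members, as the floor selects on the difference itself. Lists share members. The genes and lists were chosen with earlier results of these data known. Named genes were pht1 and ura4, the 20 highest and 20 lowest genes above the floor, every gene at least 2-fold lower, list members with the largest differences, the 5 highest and 5 lowest of the additive fit and the 10 with the largest gap each way between genotypes. Members named to show that a function held, and those at the fold threshold, were chosen after their values were seen.

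The test of time used limma 3.58.1 under R 4.3.3 (genotype and time as additive terms, variances following intensity, Benjamini-Hochberg at 0.05, only genes that pass the floor on 2 or more arrays). The p-values reflect only how these 4 arrays vary, which may be technical. On simulated arrays of 2314 genes this fit called 62% of 100 genes changed by 1 log2 unit, 92% of 100 changed by 2 and 0.378% of 2114 unchanged. There the noise was shuffled over genes. On the real arrays genes with large changes, such as isp3 and spo5, also had large gaps between genotypes (-4.65 and -3.55). The simulated shares therefore do not give the power of the fit on the real arrays. Alternatives covered the floor, scaling, probe set choice, fold threshold and variance model. Other steps ran in Python 3.11.15 with pandas 2.3.3, numpy 2.4.6, matplotlib 3.10.9 and statsmodels 0.14.6.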

Additional observations from a re-analysis of the deposited data

Results flagged for a closer look

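Over all 2899 measured genes, 42 differed between 3 h and 1.5 h in opposite directions in the deletion and in wild type, each by more than the spread, and 31 of these lay above the floor. The text names 9 of them. None of these differences between genotypes was tested, since each direction rests on 1 array per time. rps1401 was lower at 3 h in the deletion (-1.17) and higher in wild type (0.33). agn2 was higher in the deletion (0.63) and lower in wild type (-0.50). cdc18 was higher in the deletion (0.59) and lower in wild type (-0.49). meu34 was higher in the deletion (0.63) and lower in wild type (-0.24). iph1 was higher in the deletion (0.44) and lower in wild type (-0.35). gap1 was lower in the deletion (-0.32) and higher in wild type (0.76). The histone genes hht1 and hhf1 were higher in the deletion (0.26 and 0.23) and lower in wild type (-0.26 and -0.49). atf1 was higher in the deletion (0.18), just past the spread, and lower in wild type (-0.29).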

How the results depend on the processing

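The count of 55 genes at least 2-fold higher at 3 h in the deletion was 70 without the floor, 55 after quantile normalization, 57 after centring on the median, 57 with the intensity trend removed and 55 with probe sets averaged. It was 32 with the floor at the array median, 104 at 1.5-fold and 16 at 3-fold. The 11 lower genes became 12, 9, 9, 11 and 11 in the same order, 8 at the median floor, 33 at 1.5-fold and 2 at 3-fold. All 55 higher genes were among those counted under each of the 3 scalings, and of 197 genes, those named and the remaining 2-fold higher ones, the 160 that differed by more than the spread kept their direction there and with probe sets averaged. No list median changed sign past the spread. Over members above the floor, 3 medians moved by more than the spread: hexose transporters from 0.03 to 0.34 with no floor, meu genes from 1.10 to 0.81 and regulators of the divisions from 0.16 to 0.59 at the median floor, where fewer members remain. limma's additive fit, with 0 calls as reported, called 0 without the intensity trend and 0 of 1611 genes at the median floor, but 69 without the floor (54 higher, 15 lower) and 118 after quantile normalization (74 higher, 44 lower). The cause of the last difference was not tested. No paired analysis was possible because each group has 1 array and the labels give no replicate numbers, so no replicate could be left out either. Signal near background limits the size of differences that start under 8.37.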

Other observations

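Probe sets that carried no single gene symbol leaned the other way from the named genes. Of 2082 such probe sets 1525 lay above the floor, and in the deletion 8 (0.52%) passed 2-fold upward at 3 h and 17 (1.11%) downward, where named genes gave 2.36% and 0.473%. Their differences ran between -2.30 and 1.79. Of the 8 higher ones 6 were also at least 2-fold higher in wild type, and of the 17 lower ones 5 were also at least 2-fold lower there. Which transcripts these probe sets read is not given in the tables used here.

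Below the floor, 15 named genes passed 2-fold upward in the deletion and 1, eng1, downward. The 15 included ssm4, spo4, rec27, spn6, mei3, tht2 and atf21, which are genes of the horsetail stage, the divisions, recombination, the forespore membrane, meiotic entry and sporulation, and the hexose transporter gene ght7.

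Of the genes whose difference was more positive in the deletion than in wild type, several were lower at 3 h in wild type and lower by less or level in the deletion. erg32, of ergosterol synthesis, was at -0.36 in the deletion and -1.39 in wild type. sib2, of siderophore synthesis, was at -0.09 in the deletion and -1.10 in wild type. cat1, a basic amino acid permease, was at 0.14 in the deletion and -0.73 in wild type, and srx1, sulfiredoxin, at -0.13 in the deletion and -0.88 in wild type. aca1 was at 0.11 in the deletion and -0.85 in wild type, and rar1 at 0.03 in the deletion and -0.73 in wild type. These differences between genotypes were not tested.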
